A study of Mus musculus with 16 samples.

Results

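The genes of Polycomb repressive complex 2 (PRC2) were examined in sparse, genetically defined cells of the mouse neocortex at postnatal day 4. Members were 10 genes picked by symbol from the 53379 genes in the files. Of these, 6 encode core subunits (Eed, Ezh1, Ezh2, Suz12, Rbbp4 and Rbbp7) and 4 encode accessory subunits (Mtf2, Phf19, Jarid2 and Aebp2). All 10 were present in the files, and each had reads in at least some of the libraries.

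Cells came from mosaic analysis with double markers (MADM), in which Cre-driven exchange between homologous chromosomes marks single cells by colour and genotype. Control animals were MADM7-GT/TG; Emx1-cre; XGFAP-lacZ and gave green Eed+/+ cells. Animals that also carried the mutant Eed allele on the MADM chromosome gave green Eed-/- cells within a largely heterozygous cortex. All groups thus shared the chromosome 7 MADM cassettes, Emx1-driven Cre, which acts in dorsal telencephalic progenitors, and lacZ under a human GFAP promoter. Green cells in both genotypes hold both copies of chromosome 7, where Eed lies, from the father. The labels give the strain as CD1, and the study's methods describe a mixed C57BL/6 and CD1 background and animals of both sexes. Sorted GFP+/lacZ+ cells were labelled astrocytes (Eed+/+, n = 5; Eed-/-, n = 5) and GFP+/lacZ- cells neurons (Eed+/+, n = 2; Eed-/-, n = 3), with 1 animal per library. An animal may have given both an astrocyte and a neuron library, which the labels do not record.

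PRC2 places methyl groups on lysine 27 of histone H3 and thereby keeps developmental genes silent. Ezh1 and Ezh2 are alternative catalytic subunits, Eed binds the methylated product and stimulates the enzyme, Suz12 is the scaffold, and Rbbp4 and Rbbp7 are histone-binding proteins shared with other chromatin complexes. Mtf2 and Phf19 belong to the PRC2.1 form and Jarid2 and Aebp2 to the PRC2.2 form. In the developing cortex PRC2 has been implicated in the passage of progenitors from making neurons to making astrocytes. The study calls the earlier findings on this controversial, and it reported that the passage was not impaired in sparse Eed-/- cells. Ezh2 is generally high in dividing cells while Ezh1 is retained in cells that have stopped dividing.

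The deleted part of Eed is shown because it sets what a read count can say about the genotype. Eed (ENSMUSG00000030619.9) lies on the minus strand of chromosome 7, from 89954654 to 89980983 (GRCm38). Exons 3 to 6 of the 12 exons of transcript Eed-201 fall within the interval that the mutant allele lacks. They are entirely coding and are given 5′ to 3′ on the coding strand in lower case.
Eed exon 3: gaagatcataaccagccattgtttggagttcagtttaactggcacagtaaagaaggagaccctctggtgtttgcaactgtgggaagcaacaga
Eed exon 4: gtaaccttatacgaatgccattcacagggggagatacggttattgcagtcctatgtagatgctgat
Eed exon 5: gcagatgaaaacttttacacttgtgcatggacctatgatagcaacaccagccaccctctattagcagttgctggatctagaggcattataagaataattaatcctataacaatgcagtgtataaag
Eed exon 6: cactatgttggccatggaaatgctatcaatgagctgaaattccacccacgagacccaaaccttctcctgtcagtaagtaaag
Exon 3 spans chr7:89972231-89972323, exon 4 chr7:89971540-89971605, exon 5 chr7:89970306-89970431 and exon 6 chr7:89969571-89969652. Together these exons hold 367 bases, which is 17.8% of the transcript, 27.7% of its 1323 coding bases and not a multiple of 3. Of the 3828 exonic bases of the gene over all its transcripts, 568 (14.8%) lay in the deleted part, and 261 overlap E230029C05Rik, where reads could not be assigned to either gene. Most positions that give an Eed read were therefore present in both genotypes, so the gene count checks the genotype only in part. The study itself counted reads within the deleted interval and reported efficient deletion in sorted Eed-/- astrocytes. It also found the histone mark of PRC2 undetectable in Eed-/- astrocytes at this age.

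Library quality was uneven, and the main results are given with and without the weak libraries. Reads assigned to genes ranged from 211736 to 3178529 and the uniquely aligned share from 26.1% to 76.6% over the 15 labelled libraries. Limits of at least 60% and at least 1000000 uniquely aligned reads were met by 10 libraries. Outside them were Eed-/- astrocyte replicates 1, 3 and 4, Eed+/+ astrocyte replicate 3 and Eed+/+ neuron replicate 2. The study itself removed several of the 16 libraries, by their place in a principal component analysis or low correlation between replicates. The sources used here do not name them, so results over all labelled libraries include some that the study set aside. A count of 3 reads corresponded to between 0.944 and 14.2 CPM, that is, reads per 1000000 reads on genes, and levels below that floor were not resolved. All 10 members had reads in 9 libraries, but the 3 Eed-/- astrocyte libraries outside the limits held reads of 3, 4 and 1 members. The last of these had 1 read in total for the whole complex.

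The labelled cell types were checked against marker genes. The neuron libraries held 11 or 12 of 12 astrocyte markers, whose summed level was 6943 to 23144 CPM in Eed+/+ and 7179 to 8462 CPM in Eed-/- neurons, against 3101 to 24729 CPM in Eed+/+ and 1826 to 28578 CPM in Eed-/- astrocytes (as few as 4 of 12 detected), after scaling by trimmed mean of M values (TMM) as for all levels below. The 12 neuron markers summed to 253 to 3572 CPM in Eed+/+ astrocytes, 24.0 to 2856 CPM in Eed-/- astrocytes, 1256 to 1843 CPM in Eed+/+ neurons and 1601 to 2757 CPM in Eed-/- neurons. The astrocyte and neuron libraries thus overlapped in both lists. Within the limits the astrocyte list did not overlap, with 11450 to 28578 CPM in the 6 astrocyte and 6943 to 8462 CPM in the 4 neuron libraries, while the neuron list still did. Microglia markers (10 genes) reached 10347 and 3431 CPM in Eed-/- astrocyte replicates 1 and 3, and erythroid markers (5 genes) 5789 and 8024 CPM in Eed-/- astrocyte replicates 1 and 4. Microglia markers were otherwise at or below 489 CPM and erythroid markers at or below 62.1 CPM. Oligodendrocyte lineage markers (8 genes) summed to 1359 to 2845 CPM in Eed+/+ and 2448 to 3807 CPM in Eed-/- neurons. They exceeded the neuron list in every neuron library except Eed-/- replicate 3 (2448 against 2757 CPM). In astrocytes they summed to 1328 to 5158 CPM in Eed+/+ and 137 to 4379 CPM in Eed-/- libraries. The part of these markers in the results below was not tested. In bulk samples fewer cells of a type and less RNA per cell cannot be told apart.

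Eed itself had a lower mean level in Eed-/- cells of both cell types. In Eed+/+ astrocytes its level was 45.9, 75.6, 3.72, 39.0 and 28.2 CPM in replicates 1 to 5. In Eed-/- astrocytes it was 0, 17.2, 0, 0 and 14.1 CPM. The groups overlapped only through Eed+/+ replicate 3, which had 2 reads (over all libraries no member, and 1.41% of all genes, lay wholly lower in Eed-/- astrocytes), and the zeros all came from libraries outside the limits. Mean levels were 38.5 ± 26.2 CPM (SD, n = 5) in Eed+/+ and 6.25 ± 8.63 CPM (SD, n = 5) in Eed-/- astrocytes (two-sided exact permutation p = 0.0238). Within the limits both Eed-/- libraries lay below all 4 Eed+/+ ones, at 33.1% of their mean level, with an exact permutation p of 0.133, below which 2 libraries set against 4 cannot go. A separation in this direction was found for 7.54% of all genes in those 6 libraries.

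In neurons Eed was at 64.6 and 81.8 CPM in the Eed+/+ libraries and at 16.4, 37.8 and 33.3 CPM in the Eed-/- libraries. All 3 mutant libraries lay below both control libraries. The mean was 73.2 ± 12.2 CPM (SD, n = 2) in Eed+/+ and 29.1 ± 11.3 CPM (SD, n = 3) in Eed-/- neurons (exact permutation p = 0.2, below which 3 libraries set against 2 cannot go). The mutant mean was 39.8% of the control mean, and 45.1% within the limits.

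Because each cell type alone has few usable libraries, the genotype of the 10 libraries within the limits was also compared over both cell types, a comparison added after the data were seen. The test treats the libraries of both cell types as independent, although some may share an animal. With genotype exchanged only within a cell type, the mean difference in Eed on the log2(CPM + 1) scale was -1.36 (two-sided exact permutation p = 0.0333, the smallest that 60 arrangements allow, not adjusted for the 10 members compared). By this test 1 member, Eed, and 2.34% of 13364 genes had a p under 0.05. Over all 15 libraries the difference was -2.63 (exact permutation p = 0.0135), and dropping single libraries gave -3.00 to -2.31. Over all 15 libraries the same exact permutation test also gave unadjusted p under 0.05 for Suz12 (-2.17, p = 0.0159), Ezh2 (-2.76, p = 0.0357) and Mtf2 (-1.97, p = 0.0484), which within the limits were 0.567, 0.833 and 0.667. These are 4 of 10 members with Eed, where 8.45% of all genes had a p under 0.05. In edgeR's quasi-likelihood fit to the 10 libraries Eed differed by -1.43 on the log2 scale (SE 0.51, unadjusted p 0.0152, adjusted p 0.9997 over 11143 genes). Eed was the 1 member of 10 with an unadjusted p under 0.05, against 2.03% of all genes. With Benjamini-Hochberg adjustment 0.00897% of genes and no member were called. DESeq2 gave -1.38 for Eed with an adjusted p of 0.404. The other 9 members differed by between -0.83 and 0.82 in the edgeR fit, with unadjusted p of at least 0.398.

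**Figure D1:**
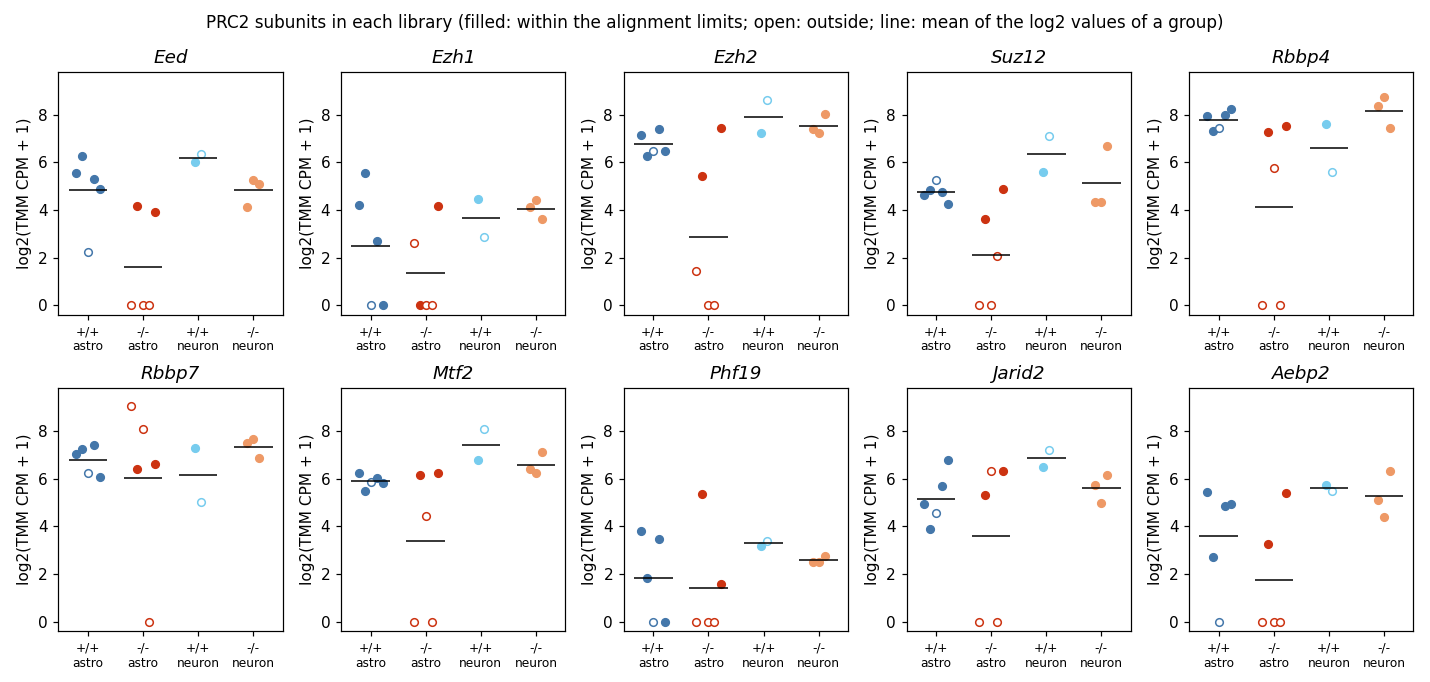
Level of each PRC2 gene in each of the 15 labelled libraries as log2(TMM CPM + 1), by genotype and cell type; filled points are libraries within the alignment limits, open points lie outside, and lines are means of the log2 values. The filled Eed points of Eed-/- cells (14.1 to 37.8 CPM) lie below those of Eed+/+ astrocytes and neurons (28.2 to 75.6 CPM) within each cell type, while for the other genes low points are mostly open.

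The other members were then compared between the genotypes in astrocytes. Over all 10 libraries, edgeR's quasi-likelihood test tested 7 members, since Ezh1, Phf19 and Aebp2 did not pass the filter on low counts. None was called at an adjusted p of 0.05, where 0% of 8956 genes were called, and none had an unadjusted p under 0.05, against 1.21% of genes. DESeq2 and limma-voom likewise called no member and gave none an unadjusted p under 0.05. The median log2 fold change was -1.35 over the 7 members and -0.54 over all genes tested. Within the limits all 10 members were tested, none was called (0% of 12070 genes) and none had an unadjusted p under 0.05 (4.04% of genes). There the members' median was -0.21 and that of all genes -0.021.

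Ezh2, the catalytic subunit that prevails in dividing progenitors, stood at 143, 77.1, 87.5, 168 and 87.3 CPM in Eed+/+ astrocytes. In Eed-/- astrocytes it was at 1.71, 41.6, 0, 0 and 171 CPM. The 3 lowest values were those outside the limits, and the remaining pair lay on either side of the control range. The log2 fold change was -1.35 (SE 1.44, adjusted p 0.9999 by edgeR) over all libraries and -0.15 (SE 0.60) within the limits. Cycling markers (14 genes) also differed within that pair, with 167 CPM in Eed-/- replicate 2 and 820 CPM in replicate 5, and in the controls they ran from 122 to 1576 CPM. Ezh1, its paralog, had 0 to 124 reads in Eed+/+ and 0 to 17 reads in Eed-/- astrocytes and was at 0 in 2 and 3 libraries. Its log2 fold change within the limits was -1.03 (SE 2.13).

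Suz12, the scaffold on which Eed and the catalytic subunit assemble, was evenly expressed in the controls, at 23.5, 27.4, 37.2, 25.7 and 17.9 CPM. In Eed-/- astrocytes it was at 0, 11.2, 0, 3.18 and 28.2 CPM. Replicate 5 lay within the control range and the other 4 below it, 3 of them outside the limits. The exact permutation p was 0.0397 unadjusted over all libraries, as against 0.667 within the limits, where the log2 fold change was -0.26 (SE 0.91).

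Rbbp4 was the most abundant member by CPM in Eed+/+ astrocytes, at 243, 161, 173, 250.3 and 302 CPM. In Eed-/- astrocytes it was at 0, 152, 53.2, 0 and 185 CPM. Both libraries within the limits were close to the lower controls. The exact permutation p was 0.0317 over all libraries, where 3 of 10 members (Eed, Suz12 and Rbbp4) and 8.5% of all genes were under 0.05 without adjustment, and 0.267 within the limits, where the log2 fold change was -0.49 (SE 0.36). Of the exonic bases of Rbbp4, 18.0% overlap other genes, and reads there could not be assigned.

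Rbbp7, the close paralog of Rbbp4 on the X chromosome, was at 129, 151, 74.4, 170.1 and 66.0 CPM in Eed+/+ and at 536, 83.1, 269, 0 and 96.7 CPM in Eed-/- astrocytes. The highest values were those of Eed-/- replicates 1 and 3, the same 2 libraries in which microglia markers were highest. The log2 fold change was 0.83 (SE 1.28) over all libraries, -0.019 without Eed-/- replicate 1 and -0.51 (SE 0.46) within the limits. Of the 50-base stretches of Rbbp7, 11.2% recur in other annotated genes, mostly the pseudogene Gm6382, so part of its reads may not have aligned uniquely.

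Among the accessory subunits, Mtf2, which recruits PRC2.1 to unmethylated CpG-rich DNA, was at 43.0 to 74.7 CPM in Eed+/+ astrocytes. The Eed-/- libraries within the limits had 70.6 and 74.5 CPM, at the upper end of that range, and those outside had 0, 20.7 and 0 CPM. Jarid2, which links PRC2.2 to chromatin already marked by the Polycomb system, ranged from 13.7 to 108 CPM in Eed+/+ and from 0 to 79.9 CPM in Eed-/- astrocytes. Phf19, another Polycomb-like protein, had 61 reads in Eed-/- replicate 2 and at most 25 in any control. Aebp2, a zinc finger partner of Jarid2, had 0 to 82 reads in Eed+/+ and 0 to 41 reads in Eed-/- astrocytes. Within the limits the log2 fold changes of these 4 genes were 0.31 (SE 0.46) for Mtf2, 0.23 (SE 0.80) for Jarid2, 1.72 (SE 1.74) for Phf19 and -0.070 (SE 1.05) for Aebp2. Each of these differences was smaller than its SE.

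**Figure D2:**
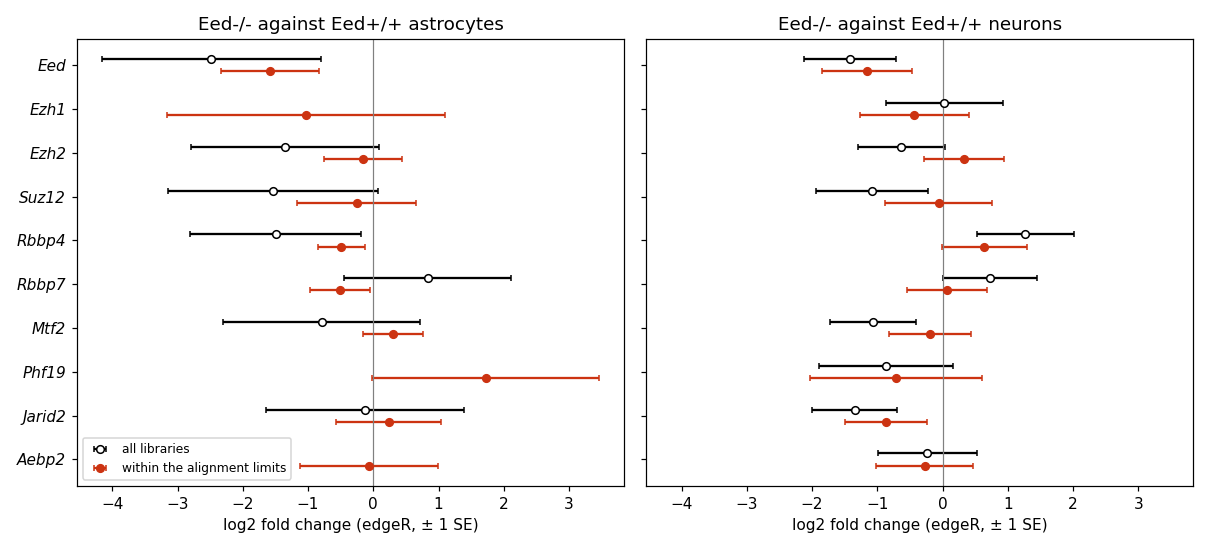
Log2 fold changes of Eed-/- against Eed+/+ cells from edgeR, with bars of 1 SE, in astrocytes (left) and neurons (right); open points use all libraries and filled points those within the alignment limits, and a gene without an open point did not pass the filter. Eed is at -2.48 and -1.58 in astrocytes and at -1.42 and -1.16 in neurons, while Ezh2, Suz12 and Mtf2 move toward 0 or past it within the limits in both cell types.

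In neurons all 10 members were tested and none was called by edgeR (0% of 11862 genes), and none had an unadjusted p under 0.05, against 7.27% of genes. DESeq2 gave no member an unadjusted p under 0.05, and limma-voom gave 1, Eed (-1.66, adjusted p 0.589), against 7.75% of genes. The median log2 fold change was -0.75 over the members and 0.15 over all genes, and within the limits, with 1 control library left, -0.23 and 0.066. Eed changed by -1.42 (SE 0.71, adjusted p 0.694 by edgeR), or -1.56 relative to the median of all genes. Cycling markers differed beside these values, summing to 998 and 1140 CPM in Eed+/+ and to 1595 to 1802 CPM in Eed-/- neurons, with a positive fold change for 13 of 14 genes (median 1.02). Neuron markers had a positive fold change for 9 of 12 genes (median 1.48), and their summed levels overlapped between the genotypes. The part of these markers in the members' values was not tested.

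Besides Eed, Jarid2 and Phf19 were lower in all 3 Eed-/- than in both Eed+/+ neuron libraries. These are 3 of the 10 members, where 7.71% of all genes were separated in this direction. Jarid2 was at 89.7 and 148 CPM in the controls and at 52.2, 30.1 and 69.7 CPM in the mutants, a log2 fold change of -1.35 (SE 0.65, adjusted p 0.686 by edgeR) and -0.87 (SE 0.63) within the limits. Phf19 rested on few reads, with 15 and 3 in the controls and 6, 9 and 9 in the mutants.

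Rbbp4 and Rbbp7 had the highest fold changes among the core genes in neurons. Rbbp4 was at 194 and 47.2 CPM in Eed+/+ and at 326, 425 and 173 CPM in Eed-/- neurons, and the groups overlapped. Its log2 fold change of 1.27 (SE 0.74, adjusted p 0.739 by edgeR) was called in 1 alternative, at 2.59 with an adjusted p of 0.0326 by edgeR when Eed+/+ replicate 1 was left out. That fit set the 3 mutants against Eed+/+ replicate 2 alone, a library outside the limits with 15 Rbbp4 reads, and called 1 of 10 members and 20.6% of all genes. Within the limits, with replicate 1 as the control, the value was 0.64 (SE 0.65). Rbbp7 was at 154 and 31.5 CPM in Eed+/+ and at 178, 202 and 116 CPM in Eed-/- neurons (0.73, SE 0.72), and within the limits the value was 0.070.

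The same library decided the direction or size for several other members. Eed+/+ neuron replicate 2 had 393 CPM of Ezh2 against 148 CPM in replicate 1, and the mutants had 168, 148 and 259 CPM. Without replicate 2 the log2 fold change of Ezh2 went from -0.63 to 0.33. Suz12 was at 47.5 and 135 CPM in the controls and at 19.5, 19.4 and 102 CPM in the mutants, and its value went from -1.08 to -0.062. Mtf2 was at 109 and 267 CPM in the controls and at 83.3, 73.5 and 138 CPM in the mutants, and its value went from -1.07 to -0.19. Eed, by contrast, stayed at -1.16 without that library. Ezh1 (2 to 40 reads per library) and Aebp2 (14 to 126 reads) differed by 0.027 (SE 0.89) and -0.23 (SE 0.76).

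The members were next compared between the sorted cell types. All neuron libraries lay in the first run of consecutive library numbers, and astrocyte libraries lay in both runs. Cell type and run thus partly coincide, and no cell type fit had a covariate for the run. In Eed+/+ cells edgeR called no member, against 0.00748% of 13367 genes, and none had an unadjusted p under 0.05, against 2.29% of genes. Astrocytes were lower than neurons by fold change for 8 of 10 members, with a median of -1.05 against 0.080 over all genes, and Rbbp4 and Rbbp7 were the exceptions. Within the limits, with 1 neuron library, 9 of 10 were lower and the medians were -0.44 and -0.011. Suz12, Mtf2 and Aebp2 were lower in all 5 astrocyte libraries than in both neuron libraries, where 9.38% of all genes were separated that way. Of the neuron libraries, replicate 2 held astrocyte markers at 23144 CPM, within the astrocyte range, and replicate 1 at 6943 CPM. Suz12 reached at most 37.2 CPM in Eed+/+ astrocytes and Mtf2 at most 74.7 CPM, below the lower neuron values of 47.5 and 109 CPM. The log2 fold changes were -1.79 (SE 1.68) for Suz12, -1.67 (SE 1.52) for Mtf2 and -1.17 (SE 1.75) for Aebp2, all with an adjusted p of 1 by edgeR. Within the limits they were -1.06 (SE 0.99), -0.95 (SE 0.54) and -1.05 (SE 1.07). Exact permutation tests of the mean level gave 0.0952 for each of Suz12, Mtf2 and Aebp2, and 5 libraries set against 2 cannot go below this.

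In Eed-/- cells edgeR likewise called no member, against 0.0598% of 13367 genes, and none had an unadjusted p under 0.05, against 7% of genes. Again 8 of 10 members were lower in astrocytes, with a median of -1.86 against -0.72 over all genes, and within the limits the medians were -0.88 and -0.17. No member separated the 5 astrocyte from the 3 neuron libraries completely. Cycling markers summed to 1595 to 1802 CPM in Eed-/- neurons and 0 to 2342 CPM in Eed-/- astrocytes. Within the limits the astrocyte range was 167 to 820 CPM, below all neuron libraries, and the part of this in the members' values was not tested. The largest fold changes were those of Suz12 (-2.38, SE 1.55) and Ezh2 (-2.13, SE 1.29), neither of which passed the test, and within the limits they were -1.25 and -0.87. With limma-voom Ezh2 (-3.25) and Rbbp4 (-2.70) had unadjusted p under 0.05, both with an adjusted p of 0.368, where 13.4% of all genes had an unadjusted p under 0.05. The interaction of genotype and cell type, which asks whether the genotype difference was larger in astrocytes, called no member with edgeR (0.0524% of 13367 genes; unadjusted, 0 members against 3.61% of genes). Its largest value among the members was that of Rbbp4, -2.86 (SE 2.02, adjusted p 0.9999 by edgeR), and limma-voom gave Rbbp4 -3.65 with an adjusted p of 0.457, the 1 member with an unadjusted p under 0.05 against 10.7% of genes. Within the limits edgeR gave Rbbp4 -1.12 (SE 0.71). DESeq2 called no member in either cell type comparison or in the interaction and gave none an unadjusted p under 0.05.

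Levels were compared between members per kilobase of exon, since transcript lengths differ. In Eed+/+ astrocytes the order was Rbbp7 (40.6 ± 15.9 CPM per kb, SD, n = 5), Rbbp4 (25.8 ± 6.72), Ezh2 (16.9 ± 6.05), Mtf2 (10.3 ± 2.05), Eed (10.1 ± 6.85), Suz12 (5.33 ± 1.43), Jarid2 (4.61 ± 3.90), Aebp2 (2.14 ± 1.81), Ezh1 (1.86 ± 2.60) and Phf19 (1.02 ± 1.20). Only the steps from Rbbp4 to Ezh2 and from Ezh2 to Mtf2 exceeded the spread of the paired differences over libraries, and both held in 5 of 5 libraries. Eed-/- neurons, the group with the most even libraries, began with the same 4 genes in the same order, with Rbbp7 at 56.7 ± 15.3, Rbbp4 at 35.2 ± 14.5, Ezh2 at 28.7 ± 8.86 and Mtf2 at 17.3 ± 6.11 CPM per kb (SD, n = 3). There the steps from Rbbp7 to Rbbp4, from Ezh2 to Mtf2, from Mtf2 to Suz12 and from Ezh1 to Phf19 exceeded their spread.

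Eed took place 5 of 10 in Eed+/+ astrocytes and place 4 in Eed+/+ neurons (19.1 ± 3.18 CPM per kb, SD, n = 2), but place 8 in Eed-/- astrocytes (1.63 ± 2.25, n = 5) and place 6 in Eed-/- neurons (7.61 ± 2.95, n = 3). Within the limits Eed took place 4 in Eed+/+ and place 7 in Eed-/- astrocytes, and place 5 in the 1 Eed+/+ neuron library. In none of the orders over all libraries did Eed differ from its neighbours beyond their spread. Phf19 and Ezh1 were the lowest pair in 3 of the 4 groups. Within the limits Rbbp7 came first in all 4 groups. The exception for the lowest pair was Eed-/- astrocytes, where Phf19 took place 7 through its reads in replicate 2.

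**Figure D3:**
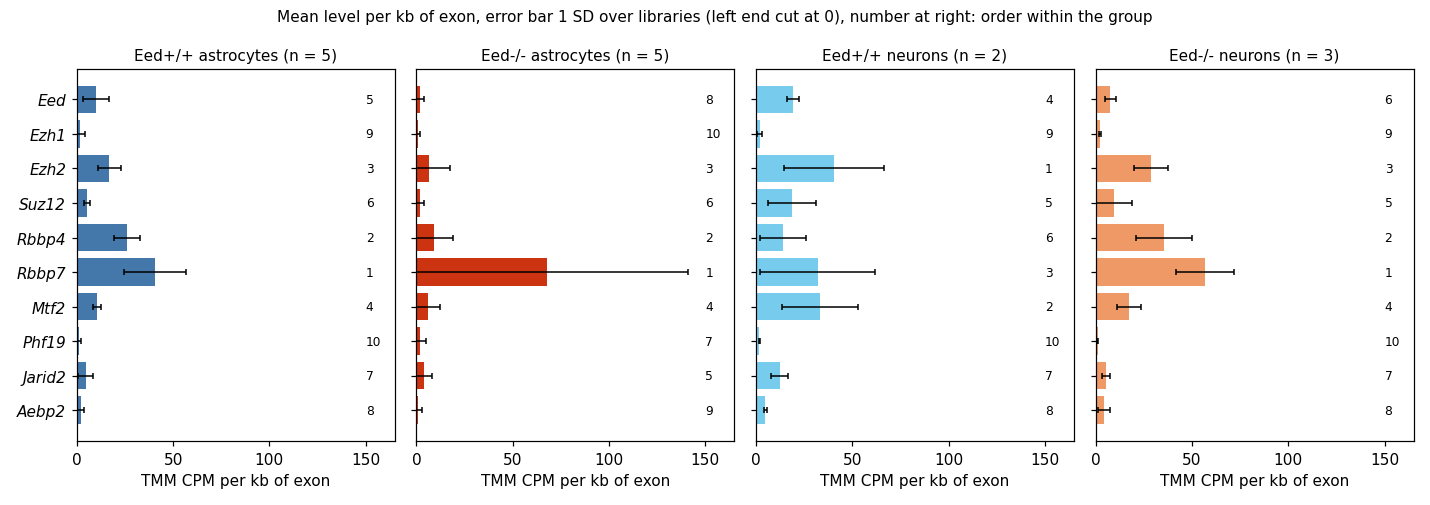
Mean TMM CPM per kilobase of exon of each member in the 4 groups, with bars of 1 SD over libraries and the place in the order at the right. Rbbp7 leads in Eed+/+ astrocytes (40.6), Eed-/- astrocytes (67.7) and Eed-/- neurons (56.7), whereas Ezh2 (40.6) leads in Eed+/+ neurons through replicate 2, outside the limits; in replicate 1 Rbbp7 (53.0) leads Ezh2 (22.2).

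Shares of reads within a library do not depend on how libraries are scaled, and were compared for 3 pairs of subunits in 12 tests. Of the reads of both catalytic subunits, Ezh2 took 88.9%, 62.7%, 100%, 96.8% and 100% in Eed+/+ astrocytes and 87.4% and 98.4% in Eed+/+ neurons. In Eed-/- neurons the share was 91.1%, 87.8% and 95.8%, and in the Eed-/- astrocyte libraries within the limits it was 100% and 90.9%. Ezh2 reads thus outnumbered Ezh1 reads in every library with more than 4 reads of the pair. The lowest of those shares, in Eed+/+ astrocyte replicate 2, rested on 332 reads (exact 95% interval 57.2% to 67.9%).

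Rbbp7 took 34.6%, 48.5%, 30.1%, 40.5% and 17.9% of the reads of Rbbp4 and Rbbp7 in Eed+/+ astrocytes. In Eed-/- neurons it took 35.3%, 32.2% and 40.0%, and in Eed+/+ neurons 44.3% and 40.0%. In Eed-/- astrocytes the share was 35.3% and 34.3% in the libraries within the limits, but 100% of 313 reads in replicate 1 (exact 95% interval 98.8% to 100%) and 83.5% of 109 reads in replicate 3 (75.2% to 89.9%). The shares of those 2 libraries lay above every other library, and replicate 4 had no read of either gene. The difference between the genotypes in astrocytes was 28.9 percentage points over all libraries (exact permutation p = 0.175, adjusted p = 1) and -0.591 points within the limits.

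Eed took 66.2%, 73.4%, 9.09%, 60.3% and 61.2% of the reads of Eed and Suz12 in Eed+/+ astrocytes, and 60.5% and 33.3% in the Eed-/- astrocyte libraries within the limits. In neurons it took 57.6% and 37.7% in Eed+/+ and 45.7%, 66.1% and 24.7% in Eed-/- libraries. The groups overlapped in both cell types. Means differed by -22.8 percentage points in astrocytes (exact permutation p = 0.286) when the 0% of Eed-/- replicate 4, from 1 read, is included, and by -7.12 points without it. In neurons they differed by -2.19 points (exact permutation p = 1). Within the limits the differences were -18.4 points in astrocytes and -12.2 points in neurons. None of the 12 tests had a p under 0.05, and every adjusted p was 1. With 2 against 3 libraries the test cannot go below 0.2.

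**Figure D4:**
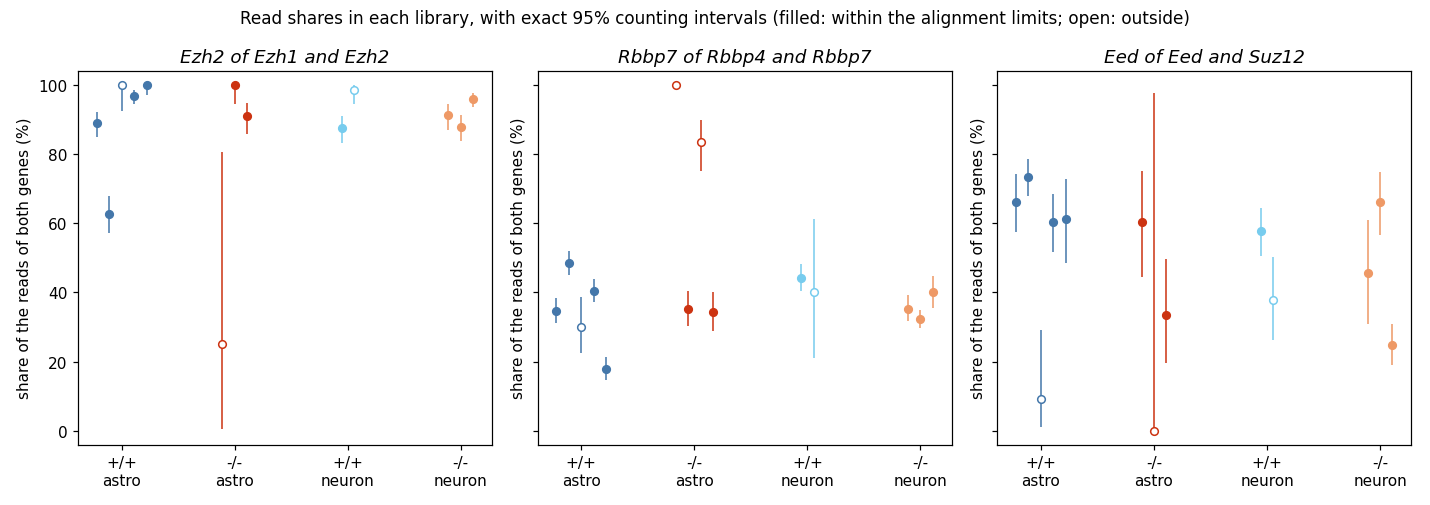
Share of reads within each library, in percent, for Ezh2 among the reads of Ezh1 and Ezh2 (left), Rbbp7 among those of Rbbp4 and Rbbp7 (middle) and Eed among those of Eed and Suz12 (right), with exact 95% counting intervals; open points are outside the alignment limits. The Rbbp7 share is 100% and 83.5% in 2 open points of Eed-/- astrocytes and at most 48.5% in all other libraries.

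The balance of accessory subunits was described without a test. Mtf2 and Phf19, of PRC2.1, together made up 28.6% to 72.1% of the reads of the 4 accessory genes in Eed+/+ astrocytes (median 54.9%, n = 5). The share was 45.4% and 59.1% in Eed+/+ neurons and 49.1% to 61.0% in Eed-/- neurons. In the 3 Eed-/- astrocyte libraries with any such read it was 20.6% to 70.0%, so the ranges of all groups overlapped.

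Other genes of the Polycomb system were examined as lists. Of further PRC2 partners (Phf1, Epop, Lcor, Lcorl, Elob and Eloc), 5 were tested in astrocytes and 6 in neurons, and no gene was called. Of the enzymes that remove the PRC2 mark or place acetyl groups on the same lysine (Kdm6a, Kdm6b, Crebbp and Ep300), all 4 were tested and none called. Of 22 PRC1 genes, whose products form the complex that acts beside PRC2, 17 were tested in astrocytes and 20 in neurons and none called. No gene of these lists was called by edgeR, DESeq2 or limma-voom in the 2 cell type comparisons or the interaction either. The lists' median log2 fold changes in astrocytes were -0.49, -1.17 and -0.22 in that order, beside -0.54 over all genes. Within the limits they were 0.15, -0.097 and 0.094, beside -0.021.

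In neurons the medians were 0.062, -1.28 and -0.39, beside 0.15 over all genes. Within the limits they were 0.0057, -0.43 and -0.0029, beside 0.066. Of the PRC1 genes 5 of 20 had an unadjusted p under 0.05 in neurons, all of them lower in Eed-/- cells, beside 7.27% of all genes, and within the limits 0 of 21 did. The genes of these lists with the smallest p did not pass the adjusted test. They were Phc3 (-2.03, SE 0.74) and Cbx6 (-1.93, SE 0.78), both of PRC1, and Phf1 (-2.14, SE 0.89), another Polycomb-like subunit, with adjusted p of 0.668, 0.668 and 0.670 by edgeR. Phf1 was at 14.4 and 101 CPM in the controls and at 11.9 to 15.3 CPM in the mutants, and the higher control was replicate 2, outside the limits. In astrocytes the smallest p belonged to Kdm2b (-2.79, SE 1.68), Cbx8 (2.26, SE 1.59) and Epop (2.12, SE 1.60), each with an adjusted p of 0.9999 by edgeR. Between the cell types they belonged to Cbx6 (-2.72), Asxl1 (-2.92) and Pcgf6 (-2.90) in Eed+/+ cells, to Cbx2 (-3.01), Pcgf5 (-2.58) and Crebbp (-1.90) in Eed-/- cells and to Kdm2b (-4.40), Cbx7 (-4.81) and Cbx6 (2.56) in the interaction, none of which passed.

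Patterns across libraries were described for Eed and Ezh2 over the 10 libraries within the limits, which share genotype groups and differ in depth. Among 13351 other genes the patterns most like that of Eed, by Pearson correlation of log2(CPM + 1), were those of Ttl (tubulin tyrosine ligase, r = 0.89), Vwa5b2 (0.86) and Def8 (0.86). The other members were not near Eed in this order. The closest were Ezh1 (r = 0.45, place 1273) and Rbbp7 (0.41), and Suz12 (0.36), Ezh2 (0.049) and Jarid2 (-0.40) followed further down. For Ezh2 genes with the closest patterns were Tmpo (a protein of the nuclear lamina, r = 0.97) and Tcf20 (0.96). Of the members, Aebp2 (r = 0.82, place 554), Suz12 (0.70) and Mtf2 (0.61) came nearest to Ezh2, and Phf19 was furthest (-0.22). These correlations over 10 libraries are given as a description.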

How the data were processed

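RNA of few sorted cells was made into full-length cDNA libraries by the authors, sequenced without molecular identifiers, aligned with STAR to mm10 (GRCm38) and counted per gene with the same program. The deposited values are raw gene counts from unique alignments, with no normalization or pooling. The sources used here do not give the annotation release. The 4 lines of totals that name no gene were dropped before any fit. The unstranded column was used, in which the authors' counting set aside reads over overlapping genes (0.934% to 5.66% of unique reads). Another 8.55% to 71.6% lay outside genes. Symbols, exons and sequences came from GENCODE M21 on GRCm38, for 53274 of the identifiers in the files (105 unmatched).

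Members and lists were chosen with earlier results of these data known. Genes were fitted with edgeR 4.0.16 (R 4.3.3; TMM, filterByExpr, robust quasi-likelihood, two-sided), within astrocytes, within neurons, or over all 15 labelled libraries for cell types and the interaction, with Benjamini-Hochberg adjustment over all genes tested and a threshold of 0.05. DESeq2 1.42.0 and limma-voom 3.58.1 were alternatives, as were RLE size factors, other count filters, the alignment limits, a replicate block and leaving out each library. The limits use cut-offs that the study named for other libraries. Exact permutation tests compared mean levels and shares, and those for members other than Eed, and over all genes as background, were added after the data were seen. Intervals and floors (3 counts) cover counting error only. Fits were also run on simulated counts with large planted changes and a capped spread, which does not show how they perform for smaller changes. All members are named, with the other Polycomb genes that were called or, failing that, the 3 with the smallest p per comparison, and the 3 genes most like Eed and Ezh2, of which 1 is not reported here. The labels of 1 library named both cell types, and it entered no comparison. The files held 0 columns without a sample.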

Additional observations from a re-analysis of the deposited data

Results flagged for a closer look

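Among the 24 groups of at least 4 libraries, 4 values stood further from the rest of their group than the 95% limit of Dixon's test; about 1 in 20 groups would do so by chance. In Eed-/- astrocytes these were Ezh2 in replicate 5 (171 CPM), Phf19 in replicate 2 (40.3 CPM) and Aebp2 in replicate 5 (41.3 CPM). Each was a library within the alignment limits. For Ezh2 the next library was replicate 2 at 41.6 CPM and the others lay at or below 1.71 CPM, and for Phf19 and Aebp2 the others lay at or below 8.58 CPM. In Eed+/+ astrocytes it was the share of Eed among the reads of Eed and Suz12 in replicate 3 (9.09%, 2 of 22 reads).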

How the results depend on the processing

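Precision was limited by depth in 5 of the 15 libraries, by groups of 2 or 3, and by exact permutation tests that cannot pass 0.05 in neurons. No member was called at an adjusted p of 0.05 in any comparison under any alternative, except Rbbp4 in neurons without Eed+/+ replicate 1 (0 to 1 member over the fits that left out 1 library). Eed kept its direction in every fit. Its mean difference in astrocytes lay between -40.9 and -23.0 CPM without any 1 library. It was -31.6 CPM within the limits, where 2 against 4 libraries could not pass 0.05, and, added after seeing the data, -55.1 and -16.6 CPM within the first and second run of library numbers (exact permutation p = 0.2 and 0.4).

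Counts over all genes moved more: in astrocytes 0 genes were called, against 46 in a fit over all 15 libraries, 24 with a mean count over 10, 5 with no filter and 1 by DESeq2, and within the limits 0 by edgeR and 24 by DESeq2. In neurons 0 were called, against 127 with no filter, 27 by DESeq2, 3 in the joint fit, 1 within the limits, 15 without Eed-/- replicate 1 and 2601 without Eed+/+ replicate 1. Between Eed+/+ cell types 1 gene was called, with 0 to 8 over the alternatives, between Eed-/- cell types 8, with 0 to 26 (the most without Eed-/- astrocyte replicate 5), and in the interaction 7, with 0 to 21.

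Several uncalled fold changes changed sign, and the cause was not tested. Within the limits these were Rbbp7 (-0.51), Jarid2 (0.23) and Mtf2 (0.31) between genotypes in astrocytes, Ezh1 (-0.43) and Ezh2 (0.33) in neurons, Rbbp7 (-0.31) between Eed+/+ cell types, and Rbbp7 (-0.89) and Jarid2 (0.21) between Eed-/- cell types. Between genotypes in astrocytes within the limits, DESeq2 and limma-voom fits were added after seeing the data. They gave -0.47 and -0.65 for Rbbp7, 0.25 and 0.75 for Jarid2 and 0.34 and 0.26 for Mtf2. Over all libraries limma-voom gave Rbbp7 -0.56 and Jarid2 0.50 in astrocytes, Ezh1 -0.058 in neurons, and Rbbp7 -0.88 and Phf19 -0.15 between Eed-/- cell types. A covariate for the run of library numbers gave Jarid2 0.19. Ezh1 between Eed+/+ cell types was 0.075 with no count filter and 0.086 with only Eed+/+ libraries.

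Leaving out 1 library changed the sign of Rbbp7 (-0.019 to 1.15) and Jarid2 (-0.59 to 0.50) between genotypes in astrocytes, of Ezh1 (-0.43 to 1.22), Ezh2 (-1.17 to 0.33) and Aebp2 (-0.92 to 0.11) in neurons, of Ezh1 (-1.23 to 1.18) and Rbbp7 (-0.39 to 1.94) between Eed+/+ cell types, and of Rbbp7 (-0.56 to 0.56) and Phf19 (-2.70 to 1.19) between Eed-/- cell types. Whether the replicate numbers pair the libraries was not settled. Deviations from the group means correlated between -0.26 and 0.17 for same-numbered libraries. Of 12 such pairs 3 were above 0.1, and 2 libraries correlated best with their own number. The deviations of the 2 Eed+/+ neuron libraries mirror each other by construction, so these values cannot exclude pairing. The replicate block called 0 members, as without it, and turned the sign of Ezh1 between Eed+/+ cell types (1.18) and of Phf19 between Eed-/- cell types (-1.04).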

Other observations

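The library whose labels named both cell types had 12 reads of Ezh2 and 0 reads of the other 9 members. With no group it was compared with none of the others.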
